A study of Mus musculus with 37 samples.

Results

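The Hox genes encode homeodomain transcription factors, and this account follows them through 4 brain regions of mice that carry 1, 2 or 3 copies of the segment matching human 16p11.2. A gene was included when a probe set of the array named it alone, as Hoxa, Hoxb, Hoxc or Hoxd with a number. That held for 37 mouse Hox genes, among 19938 genes measured in all, and each of the 37 had 1 such probe set. Hoxb8 appeared in a probe set that it shares with Hoxb7, so it has no value here.

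Mouse Hox genes lie in 4 clusters, and genes at matching places in different clusters form numbered paralog groups. In the embryo, groups with low numbers are switched on first and reach furthest forward, into the hindbrain, while groups with high numbers act in the spinal cord, trunk, limbs and tail. The forebrain and midbrain form ahead of the Hox domain, and the cerebellum arises from the most anterior part of the hindbrain. The measured genes were 10 of 11 in the Hoxa cluster on chromosome 6, 9 of 10 in the Hoxb cluster on chromosome 11, 9 of 9 in the Hoxc cluster on chromosome 15 and 9 of 9 in the Hoxd cluster on chromosome 2.

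Total RNA came from olfactory bulb, cortex, cerebellum and brain stem and was hybridised to 37 Affymetrix gene-level arrays. There were 2 df/+ mice, heterozygous for the deletion (1 copy), 3 dp/+ mice, heterozygous for the duplication (3 copies), and 3 +/+ mice (2 copies). All were F1 males of C57BL/6N and 129Sv, and their age is not given in the sources used here. The 8 mice gave 31 region samples, as no cortex array of dp/+ mouse 3 was among those analysed. In 6 samples, none of them brain stem, 2 arrays were averaged. All 4 Hox clusters lie outside the engineered segment, which all mice carry on at least 1 chromosome.

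The region labels fitted their markers. All 10 measured brain stem markers were highest in the +/+ brain stem, among them Slc6a5, the glycine transporter of inhibitory neurons, and Tph2, which makes serotonin. All 8 olfactory bulb, 7 cortex and 11 cerebellum markers were highest in their own region. The Hox genes were dim: their mean +/+ levels stood between percentiles 12.69 and 43.11 of all genes. On values this low, the 2 arrays of 1 sample differed with a median SD of 0.133 log2 units for Hox genes, against 0.0946 for all genes. Among the 8 brain stems, dim genes read highest in +/+ mouse 1, with a lower quartile over all genes of 6.38, against 6.15 to 6.33 in the other 7. Samples of other regions reached 6.46.

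Hox genes were higher in the brain stem than in the other 3 regions, and the genes that differed were those of paralog groups 2 to 6. In +/+ mice, 15 of 37 Hox genes passed the test as higher and 0 as lower. Over all genes, 15.9% were called higher in this comparison and 30.2% were called in either direction. The 15 comprised every measured gene of groups 2 to 6, and 0 of 22 genes of groups 1 and 7 to 13 passed in this fit. Other ways of processing called up to 20 Hox genes, so some genes outside groups 2 to 6 passed there. The test was limma with the mouse as a block and Benjamini-Hochberg adjustment over all genes, with calls at 0.05. At an unadjusted p under 0.05 there were 16 of 37 Hox genes and, either way, 7757 of all 19938 genes. The limits at groups 2 and 6 were read from these same values and have no test of their own. In bulk tissue, fewer cells of a type and less RNA per cell cannot be told apart.

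**Figure D1:**
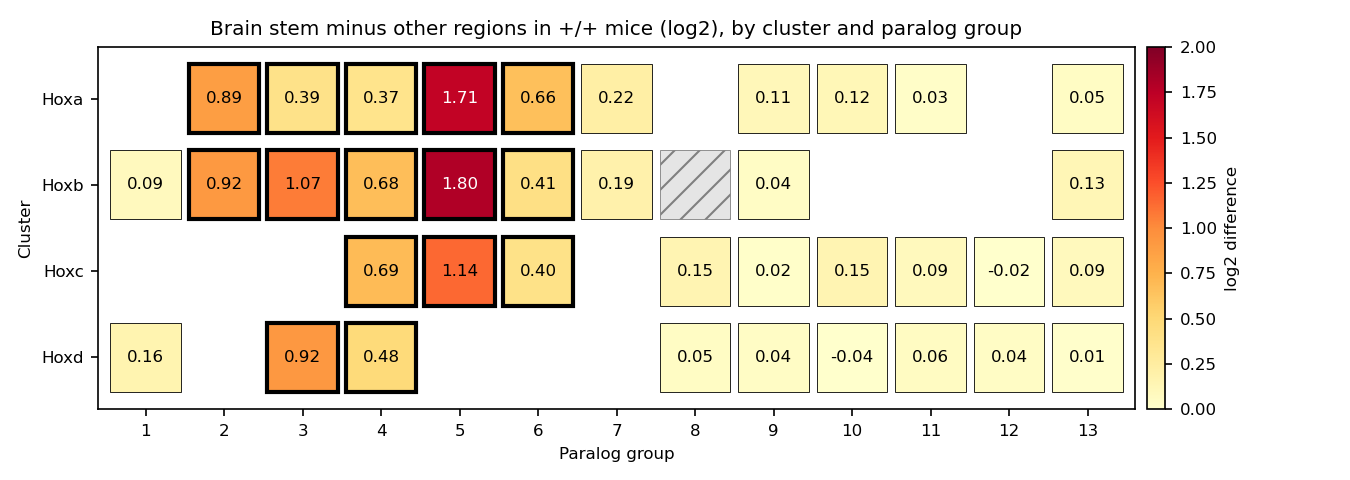
Each box is a Hox gene, placed by cluster (rows) and paralog group (columns), and its number and colour give the +/+ brain stem value minus the mean of olfactory bulb, cortex and cerebellum (log2). Thick outlines mark the 15 genes with an adjusted p under 0.05, and the hatched box marks Hoxb8, which has no value. The outlined boxes are all the measured genes of groups 2 to 6 in the 4 clusters, with the deepest colour in group 5. Not every cluster has a gene in each of these groups.

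The largest differences were in group 5, whose members Hoxa5 and Hoxc5 are needed for the motor neurons of the diaphragm. Hoxb5, which acts in the neural crest that colonises the gut, had log2 values of 7.19 and 7.95 in df/+ brain stems, 6.99, 7.36 and 7.78 in dp/+ brain stems and 7.32, 7.52 and 7.71 in +/+ brain stems. In the 23 samples of the other regions its lowest, median and highest values were 5.47, 5.79 and 6.18. The brain stem and other samples did not overlap in any genotype. In +/+ mice the Hoxb5 difference was 1.80 ± 0.08 log2 units (SE, n = 3 mice), a 3.47-fold higher level, with a limma adjusted p of 1.71e-10.

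Hoxa5 read 6.21 and 7.20 in df/+ brain stems, 6.35, 6.42 and 7.20 in dp/+ brain stems and 6.50, 6.66 and 6.92 in +/+ brain stems. The other regions ran from 4.64 through a median of 5.03 to 5.49. Every brain stem again lay above every other sample, and the +/+ difference was 1.71 ± 0.08 log2 units (SE), or 3.28-fold, with a limma adjusted p of 7.76e-10. Hoxa5 and Hoxb5 were also the Hox genes that differed most between mice within the brain stem, with SDs of 0.45 and 0.37 log2 units within genotypes, where the median Hox gene had 0.155. Both were high in the brain stems of df/+ mouse 2 and dp/+ mouse 3 and low in those of df/+ mouse 1 and dp/+ mouse 1.

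Hoxc5 was 6.00 and 6.49 in df/+ brain stems, 6.41, 6.53 and 6.67 in dp/+ brain stems and 6.56, 6.72 and 6.88 in +/+ brain stems. Outside the brain stem it ran from 5.31 through 5.64 to 5.82. The groups did not overlap, and the +/+ difference was 1.14 ± 0.08 log2 units (SE), with a limma adjusted p of 4.12e-08.

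**Figure D2:**
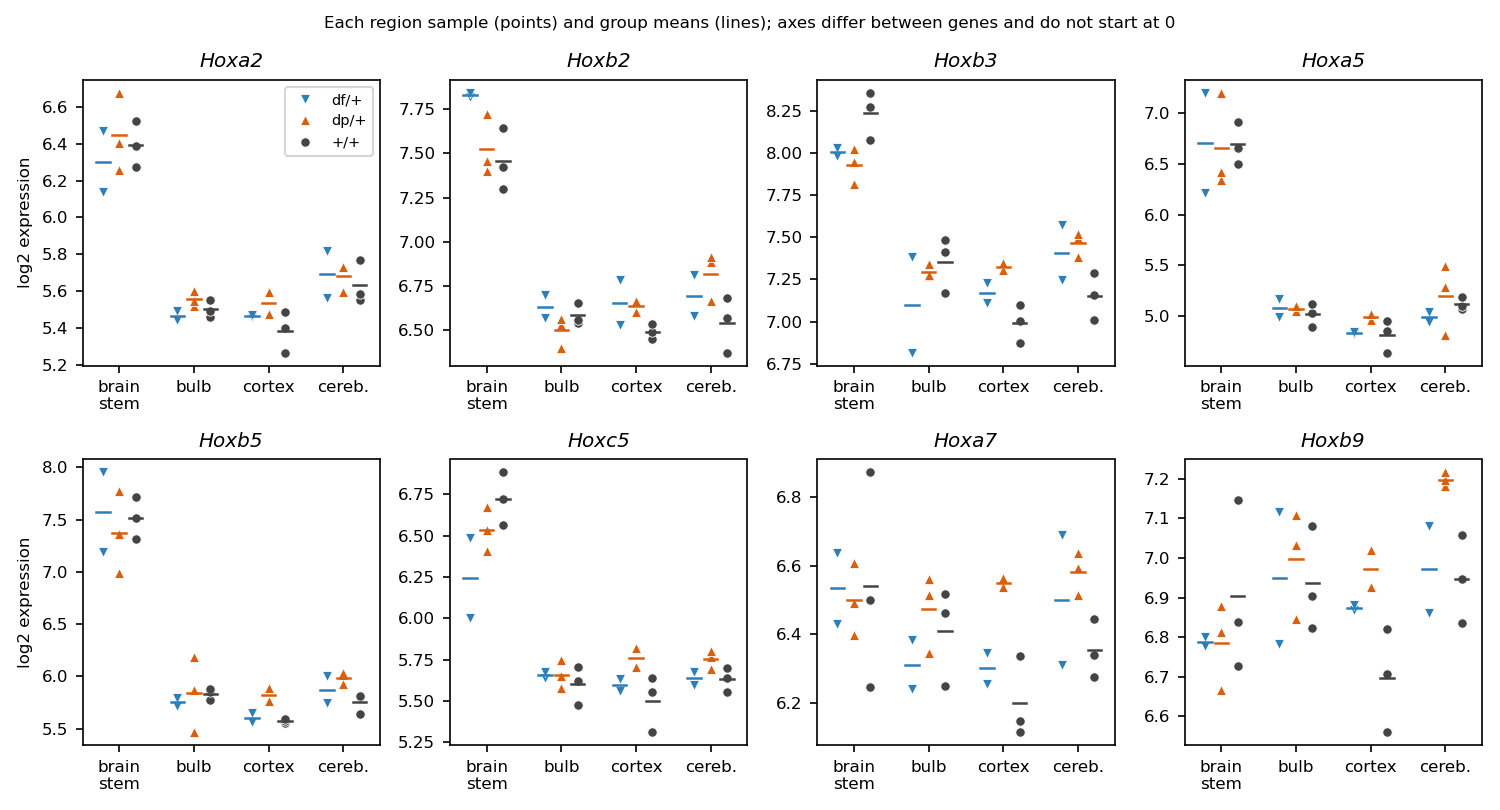
Each point is the log2 expression of 1 Hox gene in 1 region sample, with lines at the group means, for df/+ (triangles down), dp/+ (triangles up) and +/+ mice (circles) in the 4 regions. For Hoxa2, Hoxb2, Hoxb3, Hoxa5, Hoxb5 and Hoxc5 every brain stem point lies above every other point, while for Hoxa7 and Hoxb9 the regions overlap.

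Group 2 holds the Hox genes that reach furthest forward in the embryonic hindbrain. Hoxa2, which gives the second branchial arch its identity, read 6.14 and 6.47 in df/+ brain stems, 6.26, 6.41 and 6.68 in dp/+ brain stems and 6.28, 6.39 and 6.52 in +/+ brain stems. Elsewhere it ran from 5.27 through 5.55 to 5.82. Hoxb2, which acts in the development of facial motor neurons, read 7.82 and 7.84 in df/+ brain stems, 7.40, 7.46 and 7.72 in dp/+ brain stems and 7.30, 7.42 and 7.65 in +/+ brain stems. Its values elsewhere ran from 6.37 through 6.57 to 6.91. Neither gene overlapped between the brain stem and the other regions. The +/+ differences were 0.89 ± 0.08 for Hoxa2 and 0.92 ± 0.08 for Hoxb2 (log2, SE), with limma adjusted p-values of 2.38e-07 and 1.57e-07.

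In group 3, which patterns the caudal hindbrain, Hoxb3 read 7.98 and 8.03 in df/+ brain stems, 7.81, 7.95 and 8.02 in dp/+ brain stems and 8.08, 8.27 and 8.36 in +/+ brain stems. In the other regions it ran from 6.82 through 7.28 to 7.57, with no overlap. Its +/+ difference was 1.07 ± 0.09 log2 units (SE), with a limma adjusted p of 1.36e-07. Hoxd3, which shapes the first neck vertebra, differed by 0.92 ± 0.09 log2 units (SE), with 6.56 to 7.04 in the 8 brain stems and 5.61 to 6.39 in the other samples. Hoxa3, needed for the thymus and parathyroid, differed by 0.39 ± 0.07 log2 units (SE), and its 8 brain stem values of 5.84 to 6.13 overlapped the other samples, which ran from 5.50 to 6.01.

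Group 4, which marks the most caudal hindbrain and the neck, was higher by 0.69 for Hoxc4, 0.68 for Hoxb4, 0.48 for Hoxd4 and 0.37 for Hoxa4 (log2). In group 6, whose member Hoxc6 specifies forelimb motor neurons, the differences were 0.66 for Hoxa6, 0.41 for Hoxb6 and 0.40 for Hoxc6. Across the 15 genes the limma adjusted p was at most 0.00568, for Hoxa4. Hoxa4 and Hoxb6 were also the only 2 of the 15 in which a +/+ brain stem sample overlapped another +/+ region. Without +/+ mouse 1 neither passed, at 0.24 and 0.29 log2 units with limma adjusted p-values of 0.085 and 0.0548, and 13 genes were called. The other 13 genes had every +/+ brain stem above every other +/+ sample, which held for 5.61% of all genes.

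The median difference of the 15 genes was 0.69 log2 units, with a range of 0.37 to 1.80. For the 20 measured genes of groups 7 to 13 it was 0.05, with a range of -0.04 to 0.22, and the median over all genes was -0.009. Just outside the 15, Hoxa7 and Hoxb7 of group 7, which act in the trunk, differed by 0.22 ± 0.10 and 0.19 ± 0.09 log2 units (SE), with limma adjusted p-values of 0.116 and 0.134. Hoxa7 read 6.43 and 6.64 in df/+ brain stems, 6.40, 6.49 and 6.61 in dp/+ brain stems and 6.25, 6.50 and 6.87 in +/+ brain stems. In the other regions it ran from 6.11 through 6.38 to 6.69, so the samples overlapped throughout. In group 1, Hoxb1, which gives rhombomere 4 of the embryo its identity, differed by 0.09 ± 0.09 log2 units (SE) and Hoxd1 by 0.16. Their limma adjusted p-values were 0.518 and 0.18.

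Differences within a paralog group were set side by side without a test. In group 2 they were 0.89 in the Hoxa cluster and 0.92 in the Hoxb cluster (log2). In group 3 the values ran from 0.39 in the Hoxa cluster to 1.07 in the Hoxb cluster, and in group 5 from 1.14 in the Hoxc cluster to 1.80 in the Hoxb cluster. By cluster, the called genes were 5 of 10 in Hoxa, 5 of 9 in Hoxb, 3 of 9 in Hoxc and 2 of 9 in Hoxd. These counts follow which groups each cluster holds, since all measured genes of groups 2 to 6 were called in each.

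The 250 bases before the start of Hoxa2 and Hoxd3, both called, and of Hoxa7 and Hoxb1, both not called, are given to set their letters beside the expression results. They are RefSeq sequences of build GRCm38.p6, read 5′ to 3′ on the gene's strand, from chr6:52164832-52165081 (minus strand) for Hoxa2, chr2:74711743-74711992 (plus strand) for Hoxd3, chr6:52218574-52218823 (minus strand) for Hoxa7 and chr11:96365508-96365757 (plus strand) for Hoxb1. Capitals mark matches to 5 motifs on either strand. The motif of a Hox protein paired with a Pbx cofactor was searched as TGATNNAT. The motif of the Meis cofactors was searched as TGACAG. For nuclear receptors, which read retinoic acid response elements, the letters were AGGTCA. For Cdx proteins and Hox proteins of high number the letters were TTTATG. The box that places the start of many transcripts was searched as TATAAA. In Hoxd3 the Cdx and nuclear receptor matches overlap.
Hoxa2: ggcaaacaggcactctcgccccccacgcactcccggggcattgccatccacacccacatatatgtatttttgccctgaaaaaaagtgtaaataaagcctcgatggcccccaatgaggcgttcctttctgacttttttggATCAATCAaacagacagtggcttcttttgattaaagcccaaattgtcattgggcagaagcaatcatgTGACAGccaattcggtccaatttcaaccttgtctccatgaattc
Hoxd3: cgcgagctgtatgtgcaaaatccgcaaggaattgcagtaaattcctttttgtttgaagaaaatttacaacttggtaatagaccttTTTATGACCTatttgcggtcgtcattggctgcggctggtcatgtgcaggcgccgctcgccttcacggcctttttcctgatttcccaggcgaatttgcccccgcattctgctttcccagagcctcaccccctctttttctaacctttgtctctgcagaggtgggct
Hoxa7: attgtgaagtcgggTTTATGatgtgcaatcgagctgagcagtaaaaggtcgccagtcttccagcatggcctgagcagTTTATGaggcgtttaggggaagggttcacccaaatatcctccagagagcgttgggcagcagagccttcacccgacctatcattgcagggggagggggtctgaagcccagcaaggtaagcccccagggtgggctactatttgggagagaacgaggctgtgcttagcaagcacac
Hoxb1: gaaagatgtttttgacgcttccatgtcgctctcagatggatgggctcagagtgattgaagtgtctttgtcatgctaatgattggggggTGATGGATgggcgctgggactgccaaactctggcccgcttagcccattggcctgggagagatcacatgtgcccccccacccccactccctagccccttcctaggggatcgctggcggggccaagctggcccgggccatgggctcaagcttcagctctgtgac

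Among the 23 RefSeq windows that matched 21 measured Hox genes, the nuclear receptor motif was in 4 of 8 windows of groups 2 to 6 (Hoxd3, Hoxb4, Hoxc4 and Hoxd4) and in 2 of 15 of groups 1 and 7 to 13 (Hoxd8 and Hoxd10). It was in 14% of all 32851 windows of this length. The Meis motif was in 2 of 8 (Hoxa2 and Hoxa3) and 0 of 15, against 15.9% of all windows. The paired Hox and Pbx motif was in 1 of 8 (Hoxa2) and 2 of 15 (Hoxb1 and Hoxd11), against 7.68%. The Cdx motif was in 2 of 8 (Hoxd3 and Hoxd4) and 2 of 15 (Hoxa7 and Hoxd11), against 10.8%, and the TATA box in 1 of 8 (Hoxd4) and 2 of 15 (Hoxa10 and Hoxd13), against 12.4%. The Hoxa5 window held none of the 5. These matches describe letters only and were not checked against known sites.

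The brain stem comparison was repeated in the 5 df/+ and dp/+ mice, which are other animals than the +/+ mice. The same 15 genes were called higher, where 25.1% of all genes were called higher and 49% either way. Both fits called 14.9% of all genes higher. Hoxa5 was higher by 1.64 ± 0.13, Hoxb5 by 1.61 ± 0.11, Hoxb2 by 0.99 ± 0.07, Hoxa2 by 0.82 ± 0.06, Hoxc5 by 0.74 ± 0.06 and Hoxb3 by 0.66 ± 0.08 (log2, SE), with limma adjusted p-values of at most 1.16e-06. The median of the 15 was 0.57 log2 units and that of the other 22 was -0.04. The sign of the second median turned positive under each of the other 3 scalings of the arrays (0.009 to 0.066). Hoxc6 was nearest the threshold, at 0.12 log2 units with a limma adjusted p of 0.0403, and it did not pass without df/+ mouse 1 (0.109), df/+ mouse 2 (0.283) or dp/+ mouse 2 (0.0819). Without df/+ mouse 2 the difference itself was 0.063. Over all 8 mice, 10 of the 15 genes had every brain stem above each of the other 23 samples (Hoxa2, Hoxb2, Hoxb3, Hoxd3, Hoxb4, Hoxc4, Hoxa5, Hoxb5, Hoxc5 and Hoxa6), where 3.03% of all genes did.

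Hoxb9, a gene of the thoracic spinal cord and rib cage, was the 1 Hox gene called lower in these brain stems, where 23.9% of all genes were called lower. It read 6.78 and 6.80 in df/+ brain stems, 6.67, 6.81 and 6.88 in dp/+ brain stems and 6.73, 6.84 and 7.15 in +/+ brain stems, while the other regions ran from 6.56 through 6.93 to 7.22. The samples overlapped. The difference in df/+ and dp/+ mice was -0.22 ± 0.06 log2 units (SE, limma adjusted p 0.00639), and in +/+ mice it was 0.04.

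**Figure D3:**
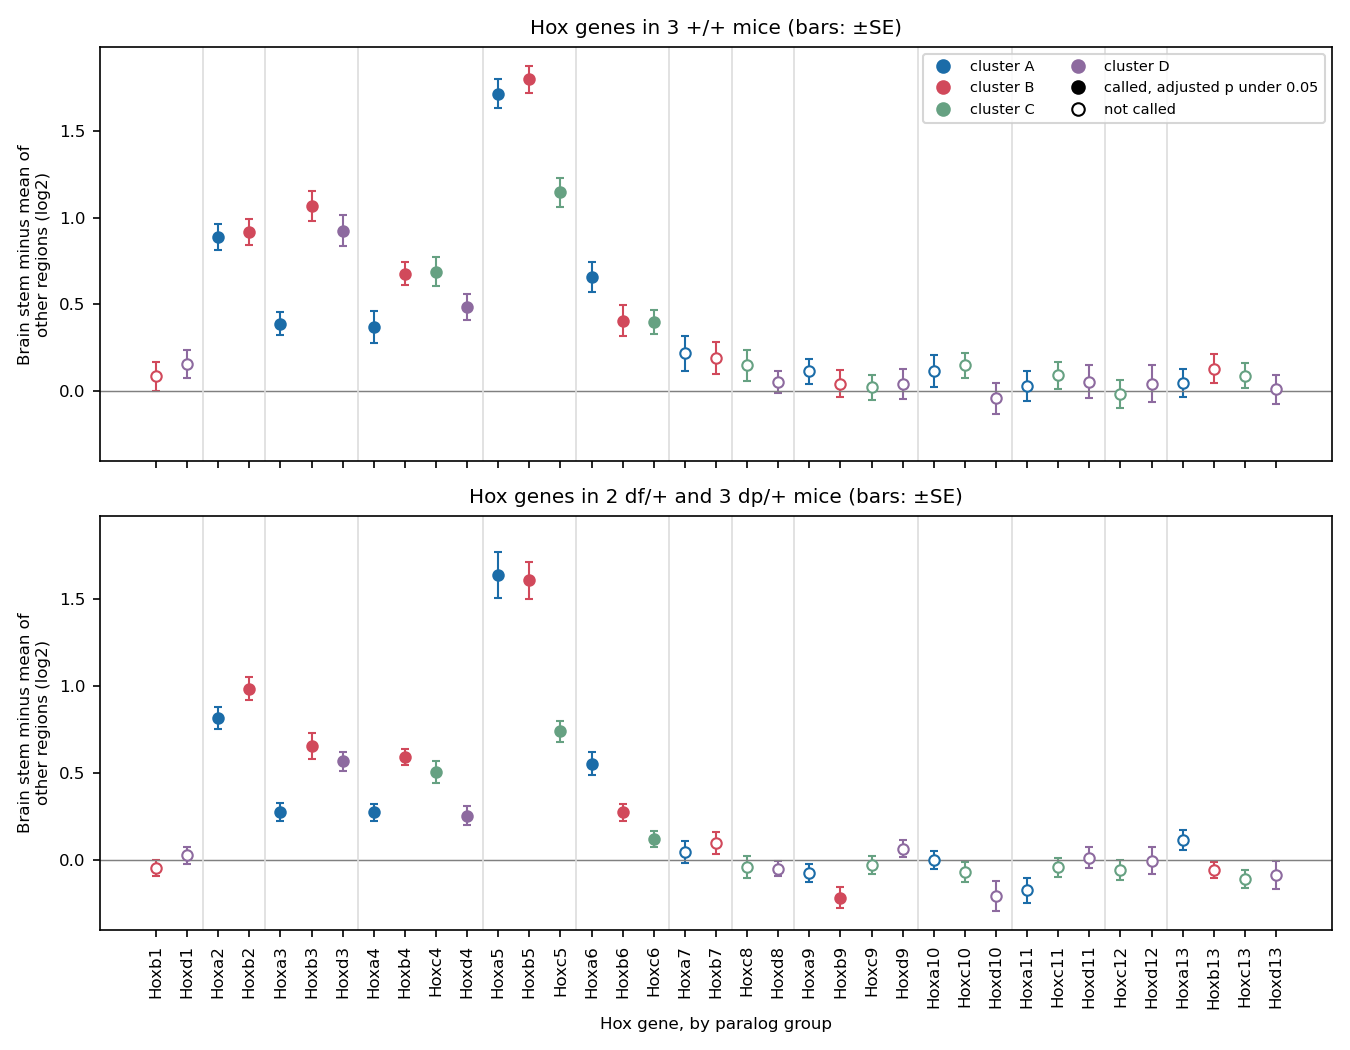
The brain stem value minus the mean of the other 3 regions (log2, points with ±SE) is drawn for each Hox gene, ordered by paralog group and coloured by cluster, in the 3 +/+ mice (top) and in the 2 df/+ and 3 dp/+ mice (bottom). Filled points have an adjusted p under 0.05. Both panels show the 15 genes of groups 2 to 6 above 0, with peaks at Hoxa5 and Hoxb5, and in the bottom panel Hoxb9 below 0.

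Within each mouse, as read from genotype and biological number, the brain stem was also set against the other regions. All 15 genes were above 0 in each of the 8 mice, with medians of 0.59 and 0.61 in df/+ mice 1 and 2, 0.51, 0.63 and 0.41 in dp/+ mice 1 to 3, and 0.73, 0.66 and 0.75 in +/+ mice 1 to 3 (log2). The 15 genes were read from the +/+ values, so their sign in +/+ mice was largely set by that choice. Hoxc6 was barely above 0 in dp/+ mouse 3 (0.0015), which has no cortex sample, and in dp/+ mouse 1 (0.0042). The share of all genes above 0 in every mouse was not counted. The other 22 genes had medians of 0.03 and -0.03 in the df/+ mice, -0.12, 0.04 and -0.12 in the dp/+ mice and 0.30, -0.07 and 0.04 in the +/+ mice. The value of 0.30 belongs to +/+ mouse 1, whose brain stem array read high for dim genes, and there all 22 of these genes were above 0.

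**Figure D4:**
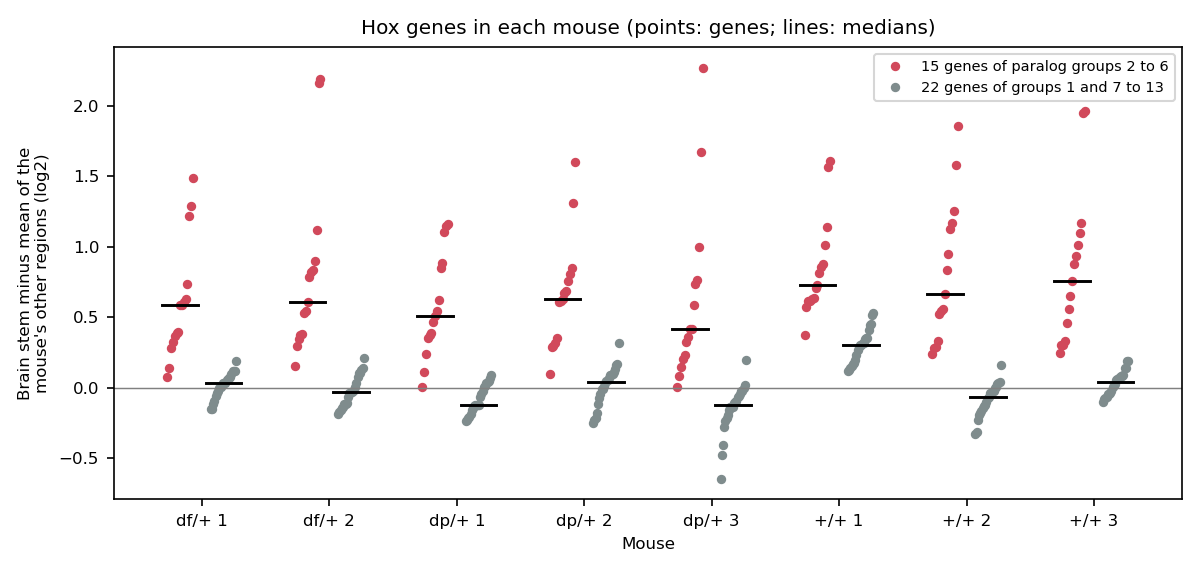
For each of the 8 mice, points give the brain stem value minus the mean of that mouse's other regions (log2) for the 15 genes of paralog groups 2 to 6 (red) and the 22 genes of groups 1 and 7 to 13 (grey), with black lines at the medians. The red medians run from 0.41 to 0.75, and the grey medians from -0.12 to 0.30.

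The regions other than the brain stem were compared in the same way. Cerebellum against olfactory bulb and cortex in +/+ mice gave 1 Hox call, Hoxc12, higher by 0.24 ± 0.09 log2 units (SE, limma adjusted p 0.0387), where 20.8% of all genes were called higher and 37.8% either way. Hoxc12 read 6.37, 6.46 and 6.48 in +/+ cerebellum, against 6.20, 6.23 and 6.43 in olfactory bulb and 6.01, 6.08 and 6.24 in cortex. Cerebellum and bulb overlapped, and the call was lost without +/+ mouse 2 or 3 (limma adjusted p 0.143 and 0.155), while the difference ran from 0.23 to 0.24 without any 1 mouse. None of the 15 genes of groups 2 to 6 passed here, and 2 of them, Hoxa2 and Hoxa5, had an unadjusted p under 0.05. With all 8 mice in the fit, 14 Hox genes were called, all higher, where 54.2% of all genes were called either way. This is a smaller share of the 37 than of all genes. Those 14 included Hoxa2, Hoxa3, Hoxa4, Hoxd3 and Hoxd4, which is not the full list. In the +/+ fit 31 of 37 Hox genes were above 0 as deposited. That number was 18 after median centring or cyclic loess and 15 after repeated quantile normalization.

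Olfactory bulb against cortex in +/+ mice gave 5 calls, all higher, where 16.4% of all genes were called higher and 35.7% either way. They were Hoxb3 (0.36), Hoxb6 (0.34), Hoxa10 (0.34), Hoxa13 (0.27) and Hoxb5 (0.26), in log2 units. All 37 Hox genes were above 0, or 35 after cyclic loess, with a median of 0.16. Genes in the same range of levels, percentiles 10 to 40, had a median of 0.11, and all genes 0.04. Without +/+ mouse 1 there was 1 call, with Hoxb3 at 0.24. Without +/+ mouse 2 there were 0, with Hoxb6 at 0.22, and without +/+ mouse 3 Hoxb6 was at 0.52. With all 8 mice in the fit, 0 of 37 passed, and the Hoxa13 difference was -0.010. Lower quartiles over all genes were 6.19, 6.14 and 6.24 in the cortex of +/+ mice 1 to 3, against 6.33, 6.29 and 6.21 in their bulbs. Dim genes thus read lower in the cortex of mice 1 and 2 but not of mouse 3. The part of these readings in the bulb against cortex calls was not tested. An F test over the 4 regions called the same 15 genes as the brain stem comparison, where it called 58% of all genes.

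Copy number of the engineered segment was compared within each region by a limma model with a mean for each of the 12 genotype and region groups and the mouse as a random block. In the brain stem, 0 of 37 Hox genes passed for df/+ against +/+, where 0.211% of all genes were called, and 2 had an unadjusted p under 0.05. Hoxc5 differed by -0.48 ± 0.12 (limma adjusted p 0.127) and Hoxb2 by 0.37 ± 0.11 (limma adjusted p 0.358), in log2 units with SE. Without df/+ mouse 1 the Hoxc5 difference was -0.23, and without df/+ mouse 2 it was -0.72. Both df/+ brain stems lay below all 3 +/+ brain stems for Hoxc5 and above them for Hoxb2. With 2 samples against 3 this adds little, and the share of all genes separated so was not counted. For dp/+ against +/+, 0 of 37 passed, where 0.015% of all genes were called, and 2 had an unadjusted p under 0.05. These were Hoxb3, at -0.31 ± 0.12, and Hoxc6, at -0.25 ± 0.08, with limma adjusted p-values of 1 and 0.799. Without +/+ mouse 1 the Hoxc6 difference was -0.14.

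The brain stem samples also differed in markers of other tissue. The mean log2 level of 7 cortex markers was 8.32 to 8.39 in df/+ brain stems, 8.34 to 8.73 in dp/+ brain stems and 8.51 to 9.46 in +/+ brain stems. The mean of 8 choroid plexus markers was 7.70 to 7.81 in df/+ brain stems, 7.77 to 8.04 in dp/+ brain stems and 7.79 to 9.10 in +/+ brain stems. The mean of 11 cerebellum markers was 8.66 to 8.89 in df/+ brain stems, 8.69 to 9.54 in dp/+ brain stems and 8.64 to 8.90 in +/+ brain stems. The highest of these, 9.54, was in dp/+ mouse 1. Its brain stem had the lowest Hoxb5 value (6.99) but the highest Hoxa2 value (6.68) of the 8. The 10 brain stem markers averaged 9.0 to 9.31 in df/+ brain stems, 8.92 to 9.06 in dp/+ brain stems and 8.82 to 9.09 in +/+ brain stems. Their part in the genotype differences of Hox genes was not tested.

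**Figure D5:**
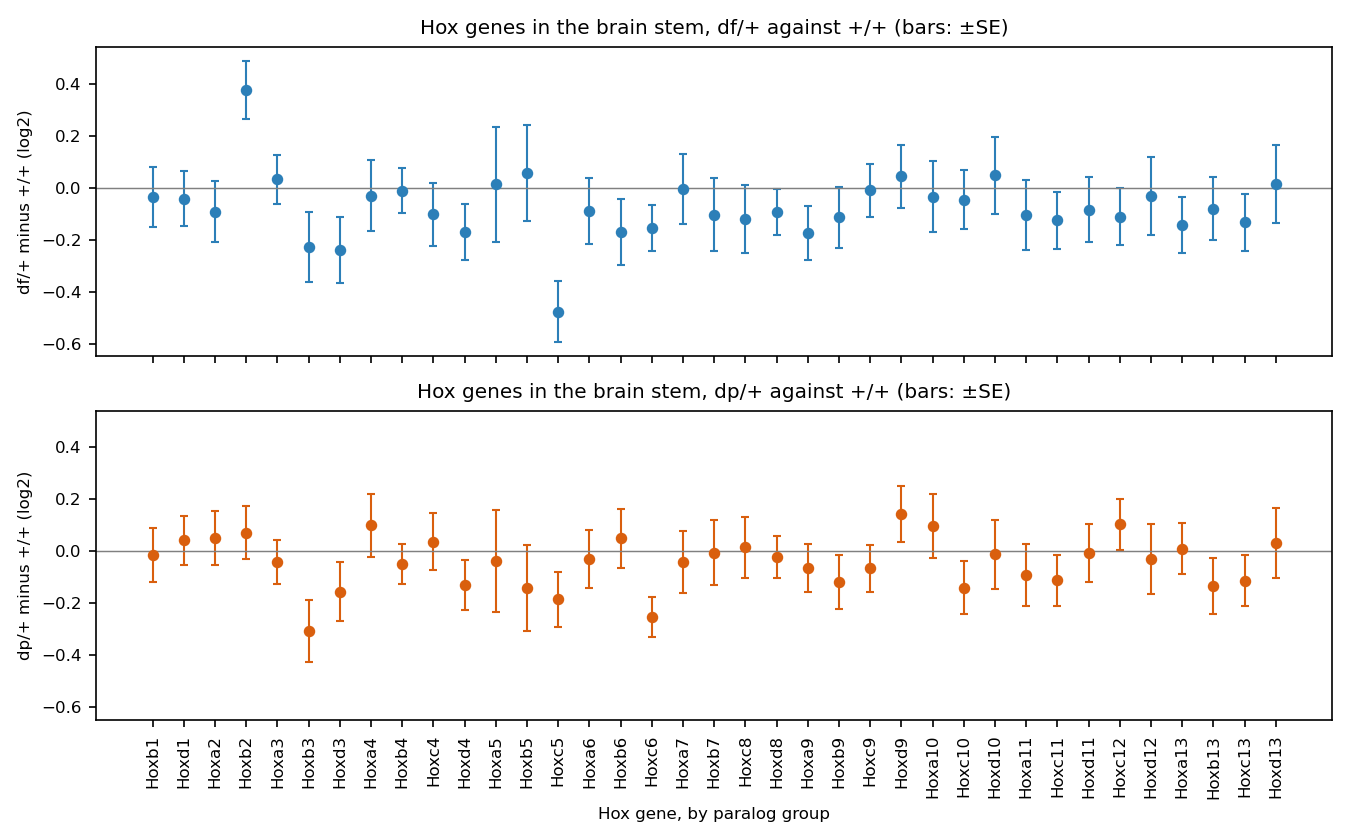
Differences in the brain stem (log2, points with ±SE) are drawn for each Hox gene, df/+ minus +/+ at the top and dp/+ minus +/+ at the bottom, ordered by paralog group. The points farthest from 0 are Hoxc5 (-0.48) and Hoxb2 (0.37) in df/+ and Hoxb3 (-0.31) in dp/+, and none passed the test.

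In the other regions df/+ against +/+ gave 0 Hox calls in olfactory bulb (0.291% of all genes called), cortex (0.1%) and cerebellum (0.0702%), with 2, 0 and 0 genes at an unadjusted p under 0.05. For dp/+ against +/+, the bulb gave 1 call, where 2.27% of all genes were called and 1.06% were called lower. Hoxa13, a gene of the digits and the urogenital tract, read 5.63, 5.67 and 6.01 in dp/+ bulbs, against 6.13, 6.14 and 6.25 in +/+ bulbs, without overlap. Its difference was -0.40 ± 0.10 log2 units (SE, limma adjusted p 0.0276). The df/+ bulbs, at 5.79 and 5.84, also lay below all +/+ bulbs, with a difference of -0.36 ± 0.11 log2 units (SE, limma adjusted p 0.182). The share of all genes with bulb groups apart in this way was not counted. The call was lost when +/+ mouse 1 or 2 or dp/+ mouse 2 or 3 was left out, with limma adjusted p-values of 0.0642, 0.101, 0.14 and 0.129.

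In dp/+ cerebellum 1 Hox gene passed, where 5.54% of all genes were called and 2.29% were called higher. Hoxd1 read 5.96, 6.06 and 6.06 in dp/+ cerebellum, against 5.59, 5.66 and 5.77 in +/+ cerebellum, without overlap. How many of all genes did not overlap there was not counted. Hoxd1 was higher by 0.35 ± 0.09 log2 units (SE, limma adjusted p 0.0315). Leaving out any 1 of the +/+ or dp/+ mice raised that p-value above 0.05, to between 0.0504 and 0.179, while the difference ran from 0.31 to 0.40. In dp/+ cortex 0 of 37 passed and 0% of all genes were called, while 12 of 37 Hox genes and 3143 of all 19938 genes had an unadjusted p under 0.05. All 37 Hox genes were above 0 there, with a median of 0.21, and genes at percentiles 10 to 40 had a median of 0.17. In dp/+ cerebellum those medians were 0.19 and 0.14, and 10 of 37 Hox genes and 5679 of all genes had an unadjusted p under 0.05.

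A test of whether the slope on log2 copy number differed between the 4 regions called 0 of 37 Hox genes, where 0.0502% of all genes were called, and 0 had an unadjusted p under 0.05. The standard errors set what could be seen: for single Hox genes in the brain stem they ran from 0.0857 to 0.22 log2 units for df/+ and from 0.0767 to 0.196 for dp/+. Whether the regional differences of df/+ and dp/+ mice depart from those of +/+ mice was tested only through these slopes.

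Genes known to work with or on Hox genes were set beside them in the +/+ brain stem comparison. Of 8 measured Hox cofactors, which bind DNA together with Hox proteins, 0 were higher and 4 were lower: Meis1 (-0.61), Pknox1 (-0.52), Pknox2 (-0.52) and Pbx3 (-0.30), in log2 units. Of 18 Polycomb and Trithorax genes, which keep Hox genes off or on, 0 were higher and 11 lower, among them Bmi1 (-0.64) and Ezh2 (-0.58), the histone H3 methyltransferase of Polycomb. These counts stand against 15.9% higher and 14.3% lower over all genes. In df/+ and dp/+ mice 2 cofactors were higher and 3 lower, and 0 Polycomb and Trithorax genes were higher and 12 lower, against 25.1% higher and 23.9% lower over all genes. Of 16 genes of the retinoic acid pathway, which switches on Hox genes in the embryonic hindbrain, 4 were higher and 5 lower, and in df/+ and dp/+ mice 4 and 4. Aldh1a1, which makes retinoic acid, was higher by 1.05 and the receptor gene Rxra by 0.67, while Stra6, a retinol transporter, differed by -0.53. Crabp1, which binds retinoic acid in the cell, was higher by 0.36. The 6 measured Cdx and ParaHox genes gave 0 calls, with Cdx1 at 0.11 and Gsx1 at 0.13.

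The Hox clusters also hold microRNAs that target Hox transcripts. Their 5p arms are shown because they form pairs that share a seed (bases 2 to 8, in capitals), with 1 base different in each pair (U12A from miR-10a to miR-10b and A12C from miR-196a to miR-196b, counted from 1 at the 5′ end). The sequences are from RefSeq, build GRCm38.p6.
mmu-miR-10a-5p: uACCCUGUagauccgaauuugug
mmu-miR-10b-5p: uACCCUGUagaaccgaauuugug
mmu-miR-196a-5p: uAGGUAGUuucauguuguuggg
mmu-miR-196b-5p: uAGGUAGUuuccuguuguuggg

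They lie at chr11:96317186-96317208 (Mir10a), chr2:74726074-74726096 (Mir10b), chr11:96265187-96265208 (Mir196a-1), all on the plus strand, and chr6:52230129-52230150 (Mir196b, minus strand). None of their probe sets passed for the +/+ brain stem, with differences of -0.03 for Mir10a, 0.03 for Mir10b, 0.03 for Mir196a-1 and -0.05 for Mir196b (log2). The labels describe whole transcript labelling, so these probe sets need not follow the mature microRNA. Of 9 noncoding genes of the clusters, 1 passed, where 15.9% of all genes were called higher. It was Hoxaas2, by name an antisense RNA of the Hoxa cluster, higher by 0.56 log2 units (limma adjusted p 2.57e-05). In df/+ and dp/+ mice 1 of the 9 was higher and 1 lower, where 25.1% of all genes were higher and 23.9% lower. Of 13 genes beside the clusters, 2 were higher in the +/+ brain stem, where 15.9% of all genes were, Skap2 by 0.56 and Evx2, the homeobox gene next to Hoxd13, by 0.36. In df/+ and dp/+ mice 7 of the 13 were higher and 0 lower, where 25.1% of all genes were higher.

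The genes whose pattern over the 31 samples was most like that of the 37 Hox genes (the mean of each gene's deviation from its own mean) were Sox14 (Pearson r = 0.93), Otp (0.92), Irx4 (0.91), Misp3 (0.90), Ttn (0.90), Gm10684 (0.89), Lmx1b (0.89), C130021I20Rik (0.89), Evx2 (0.87) and Fbxo40 (0.87). The samples share mice and regions, so these values describe a ranking only. Sox14, Otp, Irx4, Lmx1b and Evx2 encode transcription factors, and their +/+ brain stem differences were 0.78, 0.63, 0.65, 0.37 and 0.36 log2 units. The differences of Misp3, Ttn, Gm10684, C130021I20Rik and Fbxo40 were 0.47, 0.27, 0.38, 0.54 and 0.32 log2 units.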

How the data were processed

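Per the labels, total RNA extracted with Trizol was amplified with Ambion's whole transcript kit and hybridised to Affymetrix arrays. RMA and Affymetrix Expression Console are named in the submitters' processing notes, with no version. What the authors deposited is 1 log2 value from RMA for each of 35556 probe sets on each array. The base of the logarithm is not stated and was read from the range of the values. A platform annotation gave 1 gene symbol for 21789 probe sets, several for 1621 and none for 12146, and 21698 of the first were found in the RefSeq gene table.

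Arrays of 1 sample were averaged, the probe set with the highest mean was kept per gene, and limma 3.58.1 (lmFit, eBayes, R 4.3.3) was run on 19938 genes, with Benjamini-Hochberg adjustment over all of them and a threshold of 0.05. The sample titles give a biological number, and regions of 1 genotype with the same number were taken as 1 mouse. Regional contrasts had this mouse as a fixed block. Genotype contrasts drew on the 31 samples together, the mouse being a random block (consensus correlation 0.12). The labels give 2 arrays for 6 samples, more than the study's design text counts, and olfactory bulb 3 of the +/+ mice is an array labelled as technical repeat 2 only. The mice are separate animals. Depth does not apply to arrays, and the number of mice limits the precision. No batch or date is given. Replicate numbers were not taken to pair genotypes in the main fits. Samples of the same region and number in 2 genotypes correlated with a median r of -0.114, with a range of -0.496 to 0.32. Samples taken as 2 regions of 1 mouse had a median r of 0.105, with a range of -0.119 to 0.474. For samples of 1 region with other numbers and genotypes the median was 0.0883, so these values give little sign of the pairing by mouse. Such values therefore cannot show whether replicate numbers pair genotypes.

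All 37 Hox genes could be named. From other lists no more than 4 genes were named, those with the lowest p-values, and from all remaining genes the 10 most like the Hox mean. The 4 microRNAs and Egr2 fall outside this rule. The members and the 18 gene and marker lists were chosen with earlier results of these data known. Fits were tested on simulated data. The alternatives tried were other scalings, the first array only, brighter genes only, other priors, weights or blocks, and leaving out each mouse.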

Additional observations from a re-analysis of the deposited data

How the results depend on the processing

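The 15 brain stem calls in +/+ mice numbered 13 to 20 under all alternatives but brighter genes only, a filter that leaves Hoxb3 alone of the 37 and so gave 1 there, 1 in df/+ and dp/+ mice and 1 in the F test. Leaving out 1 mouse gave 13 to 16 in +/+ mice and 15 to 17 in df/+ and dp/+ mice. The main fit of df/+ and dp/+ mice had 16 calls, 15 higher and Hoxb9 lower, and its alternatives gave up to 21. With Hoxb9 among the calls, a count of 15 there need not mean the same 15 genes. Counts of 20 and 21 exceed 15, so Hox genes outside the 15 passed under some alternatives. In df/+ and dp/+ mice Hoxc6 also did not pass with first arrays (limma adjusted p 0.0505), a trended prior (0.0616) or without the cortex samples (0.0652, an alternative chosen after seeing the data). Cerebellum against bulb and cortex gave 2 calls with first arrays, 4 with array weights, 14 with all 8 mice, 0 with brighter genes, median centring, cyclic loess, repeated quantile normalization or no replicate block, and 0 to 1 without 1 mouse. Bulb against cortex gave 3 with median centring, 2 with loess, 1 with brighter genes or no replicate block, 0 with all 8 mice (Hoxa13 at -0.010) and 0 to 4 without 1 mouse. The dp/+ bulb call became 0 with brighter genes or the region fitted alone, and the dp/+ cerebellum call became 0 with first arrays, brighter genes, loess or quantile normalization within regions. Each was 0 to 1 without 1 mouse. With the replicate number as a block the genotype counts were unchanged, including 1 each for these 2 and 0 in the brain stem. Signal over background was not analysed here.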

Other observations

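Other regional transcription factors were counted in the same comparison, where 15.9% of all genes were called higher and 14.3% lower. Of 13 measured hindbrain and spinal cord factors, 9 were higher in the +/+ brain stem and 1 lower. Gata3 was higher by 1.80 log2 units (limma adjusted p 7.76e-10), Pax8 by 1.11, Isl1 by 0.88 and Pax2 by 0.56. The 1 lower gene, named after its value was seen, was Egr2, which marks rhombomeres 3 and 5 of the embryo, at -1.17. Of 14 forebrain and midbrain factors, 5 were higher and 5 lower. Dlx5 (-1.54) and Dlx6 (-1.06), genes of forebrain inhibitory neurons, were lower. En1 (0.93) and Gbx2 (0.76), genes of the region around the boundary of midbrain and hindbrain, were higher.

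Of the other marker lists, all 6 measured myelin genes were higher in the +/+ brain stem, with mean log2 levels of 11.41 to 11.70 in the 8 brain stems and 9.48 to 10.91 in the other samples. The number higher and lower was 2 and 0 of 5 endothelial, 1 and 0 of 7 blood, 0 and 2 of 8 meningeal, 1 and 3 of 8 choroid plexus and 0 and 0 of 7 skeletal muscle genes. The part of these cell types in the Hox differences was not tested.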
